A study of Mus musculus with 22 samples.

Results

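The genes described here are 42 imprinted genes of the mouse, chosen by symbol from well-studied imprinted loci and not by any measured value. All 42 symbols were found among the 34489 genes of a bulk RNA sequencing series. They fill 45 entries of its count table, because Dlk1, Rian and Rtl1 each have a second Ensembl identifier, and reads of these 3 genes are split between their entries. By textbook knowledge 25 members were assigned to the paternal allele, 16 to the maternal allele and 1, Gnas, to either allele depending on the transcript. For the other members this assignment is 1 per gene and leaves differences between transcripts and tissues aside. Together the members lie in 19 loci. RNA levels such as these do not show which allele was transcribed.

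The series followed mouse epiblast stem cells (EpiSCs), which hold the primed state of pluripotency, through treatment with activators of the AMP-activated protein kinase (AMPK) and through later expansion in medium for naive embryonic stem cells. It asked whether such treatment returns primed cells to the naive state, and gene expression was measured in 22 libraries. The primed group has 1 library of untreated Oct4GIP EpiSCs and 1 of untreated 129/MSM EpiSCs. At day 8 (d8) and at day 16 (d16) Oct4GIP cultures were sampled in basal medium alone or with 2iL (LIF and a pair of inhibitors, of MEK and of GSK3), AICAR (a precursor of an AMP analogue) or AICAR+LIF, 1 library each. After day 16 cells were passaged in 2iL, and the group named d16+2-3p holds 4 Oct4GIP libraries, from AICAR and from AICAR+LIF after 2 and after 3 passages. The group named d16+10p holds 7 libraries after 10 passages: Oct4GIP cells treated with AICAR, AICAR+LIF, A769662 (a direct AMPK activator), A769662+LIF and metformin+LIF, and 129/MSM cells treated with AICAR and AICAR+LIF. The naive group is 1 library of Rex1-GFP mouse embryonic stem cells kept in 2iL. Oct4GIP cells are XX and carry a green fluorescent protein and puromycin resistance cassette driven by the Oct4 promoter, whereas 129/MSM cells are XY and come from a cross of 129X1/SvJ with MSM/Ms. The records give 129/Ola as the strain of Oct4GIP. The lines therefore differ in sex chromosomes, genetic background and derivation, and perhaps in primed culture, which cannot be told apart here. The sample records name mouse embryonic fibroblasts (MEFs) as the layer under primed cells before treatment, and d8 and d16 cultures were collected whole. The study's methods describe maintenance of Oct4GIP on fibronectin and of 129/MSM on MEFs, in different media, and a move of EpiSCs onto MEFs 1 day before treatment, and which layer the primed Oct4GIP library came from is not known.

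Imprinted genes are transcribed mainly from the copy inherited from 1 parent, and the choice is carried by DNA methylation that was set in the egg or the sperm at imprinting control regions. After fertilization this methylation is protected from genome-wide erasure by zinc finger proteins such as ZFP57, which recruit TRIM28 and DNA methyltransferases to the methylated copy. Many imprinted genes act in fetal and placental growth, and imprints of cultured pluripotent cells are known to be lost in some lines and media.

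Promoter sequences are shown for 5 members whose levels the results below turn on: Mest and Plagl1, which were far apart in the 2 primed libraries, Nnat, which had 0 counts in 1 of these, Grb10, which fell between primed and d16+10p, and Zdbf2, which differed between the lines after 10 passages. They are RefSeq promoters of build GRCm38.p6, 300 bases each around an annotated start. Capitals mark TGCCGC or its reverse complement GCGGCA, the core of the motif that ZFP57 recognizes when it is methylated. Where a gene has several promoters, the one with the most matches, then the most CG dinucleotides, is given, so the windows shown favour matches. The other Zdbf2 window, chr1:63273019-63273318 at the annotated gene start, has 0 matches and 38 CG dinucleotides. Gnas, Peg3 and Kcnq1ot1, also described below, have windows with 0 matches and are not shown.
Mest, chr6:30737800-30738099, plus strand: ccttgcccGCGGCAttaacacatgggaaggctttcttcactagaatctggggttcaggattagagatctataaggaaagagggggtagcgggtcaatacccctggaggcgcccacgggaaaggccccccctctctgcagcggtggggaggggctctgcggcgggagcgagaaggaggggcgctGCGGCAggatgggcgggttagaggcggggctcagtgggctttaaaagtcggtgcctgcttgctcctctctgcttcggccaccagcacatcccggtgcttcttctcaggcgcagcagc
Plagl1, chr10:13090582-13090881, plus strand: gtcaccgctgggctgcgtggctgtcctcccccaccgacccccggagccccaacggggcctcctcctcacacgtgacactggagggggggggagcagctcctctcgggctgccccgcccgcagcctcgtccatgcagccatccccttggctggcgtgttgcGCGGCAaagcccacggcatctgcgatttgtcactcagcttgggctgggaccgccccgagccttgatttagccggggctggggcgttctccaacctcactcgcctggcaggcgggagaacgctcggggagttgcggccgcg
Nnat, chr2:157559828-157560127, plus strand: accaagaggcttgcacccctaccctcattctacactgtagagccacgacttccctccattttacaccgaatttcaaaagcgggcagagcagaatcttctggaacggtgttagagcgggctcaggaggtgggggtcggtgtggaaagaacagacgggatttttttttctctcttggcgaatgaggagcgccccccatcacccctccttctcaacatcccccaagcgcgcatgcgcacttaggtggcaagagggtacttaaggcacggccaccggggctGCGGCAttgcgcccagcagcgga
Grb10, chr11:12037371-12037670, minus strand: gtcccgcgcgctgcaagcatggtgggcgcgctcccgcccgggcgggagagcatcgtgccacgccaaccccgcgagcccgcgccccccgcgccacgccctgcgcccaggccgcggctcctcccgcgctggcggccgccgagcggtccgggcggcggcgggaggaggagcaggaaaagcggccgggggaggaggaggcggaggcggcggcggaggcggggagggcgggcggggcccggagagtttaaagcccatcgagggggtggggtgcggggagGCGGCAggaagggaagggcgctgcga
Zdbf2, chr1:63200108-63200407, plus strand: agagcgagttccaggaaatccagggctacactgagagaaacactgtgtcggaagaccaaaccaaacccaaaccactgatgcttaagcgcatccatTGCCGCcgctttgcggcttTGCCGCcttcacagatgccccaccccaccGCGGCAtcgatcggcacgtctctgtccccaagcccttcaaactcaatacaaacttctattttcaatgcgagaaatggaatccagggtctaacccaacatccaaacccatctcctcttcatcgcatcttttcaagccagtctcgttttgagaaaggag
The Zdbf2 window holds 3 matches, that of Mest 2 and each of the others 1, and their CG dinucleotides number 15, 17, 26 in Plagl1, 17 in Nnat and 45 in Grb10. Among the 42 members, 35 have a promoter in the RefSeq set, 51 windows in all. The 6 letters occur in 14 of these windows (27.5%), beside 3813 of 32851 promoters of all genes (11.6%), and 13 of the 35 members have a window with a match. The 14 include 2 windows of Mest that overlap almost fully. The median number of CG dinucleotides is 15 in member windows and 7 in all promoters. A match describes the letters only and is no evidence of binding.

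Library totals were 956357 counts in AICAR d8, 1689495 in AICAR d16+10p of Oct4GIP and between 2396575 and 3404489 in the others, except for AICAR+LIF d8, the shallowest, and basal d16, the deepest. Genes with a count numbered 16620 in the shallowest and 24762 in the deepest. Values below are counts scaled to library size and composition (CPM), and a count of 3 per library, the upper 95% limit of the mean when 0 counts are observed, is taken as the floor. The floor equals 5.93 CPM in AICAR+LIF d8, 2.84 CPM in AICAR d8 and between 0.565 and 1.77 CPM elsewhere. Of the 42 members, 22 lay above the floor in every library and 0 lay at it in every library. Floors and intervals cover counting error only.

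Marker genes show what the cultures held. The summed level of 10 fibroblast markers was 63.3 CPM in primed Oct4GIP and 590 CPM in primed 129/MSM, from 2850 to 3390 CPM at d8, and 5590, 49800, 17000 and 19100 CPM at d16 in basal, 2iL, AICAR and AICAR+LIF. It was 91.7 and 98.4 CPM after 2 passages, 18.9 and 16.2 CPM after 3, from 14.9 to 24.1 CPM after 10, and 22 CPM in the naive library. Col1a1 or Col3a1, fibrillar collagens, led the list in the d8 and d16 libraries, Col1a2 with 176 CPM led it in primed 129/MSM, and Twist2, a mesenchymal factor, had 0 counts in all libraries after day 16. Pou5f1, the central pluripotency factor, was 818 and 461 CPM in the primed libraries, from 0.83 to 35.6 CPM at d8, from 0.754 to 21.5 CPM at d16 and from 717 to 1190 CPM after passaging. The sum of 8 naive markers was 17.7 and 33.2 CPM in the primed libraries and at most 79.3 CPM at d16. It was from 2360 to 2840 CPM after 2 to 3 passages, from 2990 to 4130 CPM after 10 and 3580 CPM in the naive library. The naive library thus lay within the d16+10p range and above the libraries after 2 to 3 passages. Tfcp2l1 led the sum in these libraries. Klf4 was 322 CPM in the naive library and from 96.1 to 285 CPM in the expanded ones. The sum of 6 primed markers, led by Dnmt3b, was 384 CPM in primed Oct4GIP and 1810 CPM in primed 129/MSM. It was from 53.5 to 135 CPM at d8 and from 17.2 to 164 CPM at d16. After 2 to 3 passages it was from 437 to 600 CPM, then from 74.9 to 236 CPM after 10, and 68.6 CPM in the naive library. The sums after 2 to 3 passages lay above primed Oct4GIP through Dnmt3b, which gave 531, 568, 419 and 510 CPM of them against 238 CPM. Fgf5, Otx2, Pou3f1 and Eomes were below primed Oct4GIP in each of these libraries. T was 4.73, 3.42, 2.54 and 1.76 CPM there, against 4.05 CPM in primed Oct4GIP. A lower level in such bulk libraries can mean fewer cells of a type or less RNA per cell, and these cannot be told apart.

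Other cell types were followed with smaller lists. The yolk sac list of 7 genes summed to 4080 CPM in basal d16, of which Ttr gave 4060 CPM, to 402 CPM in AICAR d16, 139 CPM in AICAR+LIF d16 and 12.8 CPM in 2iL d16. It reached 142 CPM in primed 129/MSM, nearly all Sox17, a factor of endoderm, and at most 9.47 CPM in the remaining libraries. The neural list of 4 genes ran from 403 to 1680 CPM at d8, led by Tubb3, against 27.6 CPM in primed Oct4GIP and 17.4 CPM in primed 129/MSM. The skeletal muscle list of 6 genes peaked at 253 CPM in AICAR d16+2p, where Mylpf gave 237 CPM and Myog and Myod1 had 0 counts, and the trophoblast list, with 4 of 5 genes found, stayed at or under 7.99 CPM.

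A quasi-likelihood fit in edgeR compared the states, with 18739 genes tested and 41 members among them (Nap1l5 was too low). A gene is called at a Benjamini-Hochberg adjusted p under 0.05 over all genes tested. Each condition has 1 library, so the libraries of a state stand in as replicates, and p-values measure the spread between these libraries.

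From primed to d8, 14 of 41 members changed, beside 27.7% of all genes. Blcap, H13, Igf2, Inpp5f, Ndn, Peg12 and Plagl1 rose (7 members, 14.0% of all genes), and Airn, Ascl2, Calcr, Cdkn1c, Impact, Nnat and Snrpn fell (7 members, 13.7% of all genes). Without primed Oct4GIP, 10 members were called (15.5% of all genes), and the log2 fold changes of H13 (0.78), Igf2 (2.02), Ndn (2.14), Plagl1 (1.58) and Snrpn (-1.13) no longer passed. Without primed 129/MSM, those of Cdkn1c (-0.81) and Impact (-0.25) no longer passed, that of Nnat turned to 3.34, and Airn and Calcr were too low to be tested. Impact also missed the threshold without basal d8 (-1.02). All d8 libraries are of Oct4GIP. The even split of directions rests on both primed libraries. The calls leaned to higher levels without primed 129/MSM and to lower levels without primed Oct4GIP. Among the markers, 6 of 10 fibroblast and 3 of 4 neural ones rose from primed to d8, and 4 of 6 primed ones fell, with 0 of these lists called the other way. From d8 to d16, 11 of 41 members changed, beside 26.3% of all genes. Gnas, Igf2, Meg3, Peg3, Rian, Zim1 and Zrsr1 rose (7 members, 14.6% of all genes), and Inpp5f, Magel2, Mcts2 and Peg12 fell (4 members, 11.7% of all genes). The calls of Meg3 (0.91) and Zrsr1 (0.8) ended without basal d16, that of Magel2 (-1.76) without basal d8, and that of Inpp5f without 2iL d8 (-0.58) or 2iL d16 (-0.57). Those of Peg3 and Zim1 ended without basal d8 (1.29 and 1.99), 2iL d8 (1.34 and 2.17) or AICAR d16 (1.14 and 1.52). Without the 3 shallowest libraries, of which 2 are of d8, 11 were called, 5 higher and 6 lower (25.4% of all genes), and the calls of Meg3 (1.08), Rian (0.82), Zim1 (2.11) and Zrsr1 (0.68) ended. With the culture condition as a covariate in a fit of the 8 libraries, 11 of 30 members were called (24.2% of all genes), 7 of them as before, and the calls of Inpp5f (-0.72), Magel2 (-2.47), Mcts2 (-1.0) and Zim1 (1.64) ended. In the main fit, 7 of 10 fibroblast and 2 of 3 yolk sac markers rose from d8 to d16, and 3 of 4 neural ones fell, with 0 the other way. The part of other cell types in the members' changes at both steps was not tested.

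From d16 to d16+2-3p, 24 of 41 members changed, beside 71.1% of all genes. Ascl2, Impact, Kcnq1ot1, Mcts2, Nnat, Peg13 and Snrpn rose (7 members, 33.2% of all genes). Asb4, Blcap, Gnas, Grb10, H13, Igf2, Inpp5f, Meg3, Ndn, Peg12, Peg3, Plagl1, Rtl1, Sgce, Slc22a18, Usp29 and Zim1 fell (17 members, 37.9% of all genes). All 10 fibroblast markers fell and all 8 naive markers rose in the same comparison, and the part of the feeder cells in the members' changes was not tested. The call of Slc22a18 ended without AICAR d16 (-1.87), and that of Meg3 ended with only AICAR and AICAR+LIF libraries and the condition as a covariate (-0.44).

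From d16+2-3p to d16+10p, 9 of 41 members changed, beside 9.35% of all genes. Copg2 alone rose (1 member, 4.75% of all genes), and Cdkn1c, H19, Kcnq1ot1, Magel2, Mest, Nnat, Peg10 and Rian fell (8 members, 4.61% of all genes). The count was 1 without AICAR d16+2p (5.03% of all genes), 2 without AICAR+LIF d16+2p (5.16%), 5 without AICAR d16+3p (5.82%) and 4 without AICAR d16+10p of Oct4GIP (7.05%). With only AICAR and AICAR+LIF libraries of Oct4GIP and the condition as a covariate, 12 of 32 members were called (15.7% of all genes), 7 of the 9 among them. Among the markers, Col1a1 (1 of 10 fibroblast), Cubn (1 of 3 yolk sac), Sox1 (1 of 4 neural) and Dnmt3b (1 of 6 primed) fell and Tfcp2l1 (1 of 8 naive) rose in this comparison. The fibroblast sum was 91.7 and 98.4 CPM after 2 passages and from 14.9 to 24.1 CPM after 10, and the part of this in the members' changes was not tested.

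Between primed and d16+10p, the ends of the protocol, 25 of 41 members changed, beside 36.6% of all genes. Impact, Kcnq1ot1 and Zrsr1 rose (3 members, 16.7% of all genes), and 22 members fell, beside 19.9% of all genes. Without primed 129/MSM the count was 16, with 5 higher and 11 lower, and 12 of the 25 calls were among them, beside 28.8% of all genes. Airn and Calcr, among the 25, were above the floor only in primed 129/MSM of these libraries and could not be fitted without it. Of the 10 fibroblast markers, 9 fell in this comparison, with a median log2 fold change of -5.31, and the part of feeder cells in the members' falls was not tested. The median log2 fold change of the tested members was -1.61, and -1.68 with counts under the floor raised to it, against -0.01 over all genes. It rests largely on primed 129/MSM: without that library the median was -0.34 (-0.43 at the floor) against 0.07 over all genes, and without primed Oct4GIP it was -1.11 (-1.16) against 0.03. In the earlier steps the members' medians were -0.07 from primed to d8 (all genes 0.0, members at the floor -0.03), 0.16 from d8 to d16 (0.0, 0.05), -0.33 from d16 to d16+2-3p (-0.15, -0.39) and -0.48 from there to d16+10p (0.0, -0.3). With each library left out they ran from -0.28 (basal d8) to 0.52 (primed 129/MSM), from 0.02 (AICAR+LIF d16) to 0.39 (2iL d16), from -0.71 (AICAR+LIF d16+2p) to -0.29 (basal d16) and from -0.59 (AICAR d16+3p) to -0.28 (AICAR+LIF d16+2p). Members were chosen as a list, so these medians describe it and are not a test. Primed and d16+10p libraries serve in more than 1 of these comparisons.

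**Figure D1:**
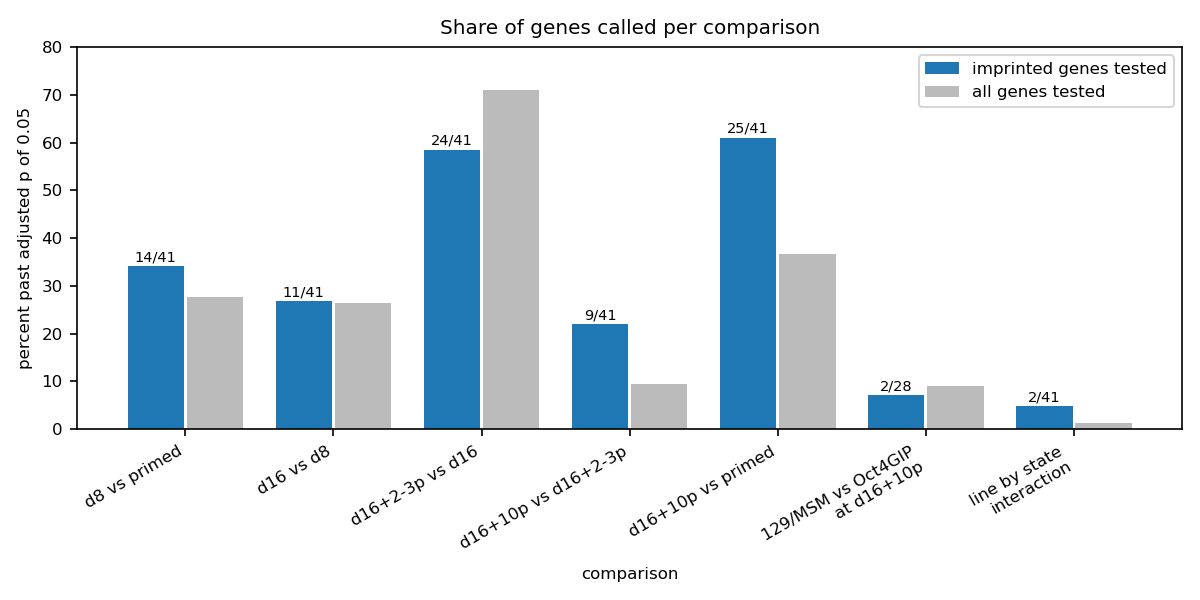
Share of genes called per comparison, in percent, as bars from 0 for the tested imprinted members (number called and tested above the bar) and for all genes tested. Members reach 61.0% between primed and d16+10p, against 36.6% of all genes, and 58.5% from d16 to d16+2-3p, against 71.1%.

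**Figure D2:**
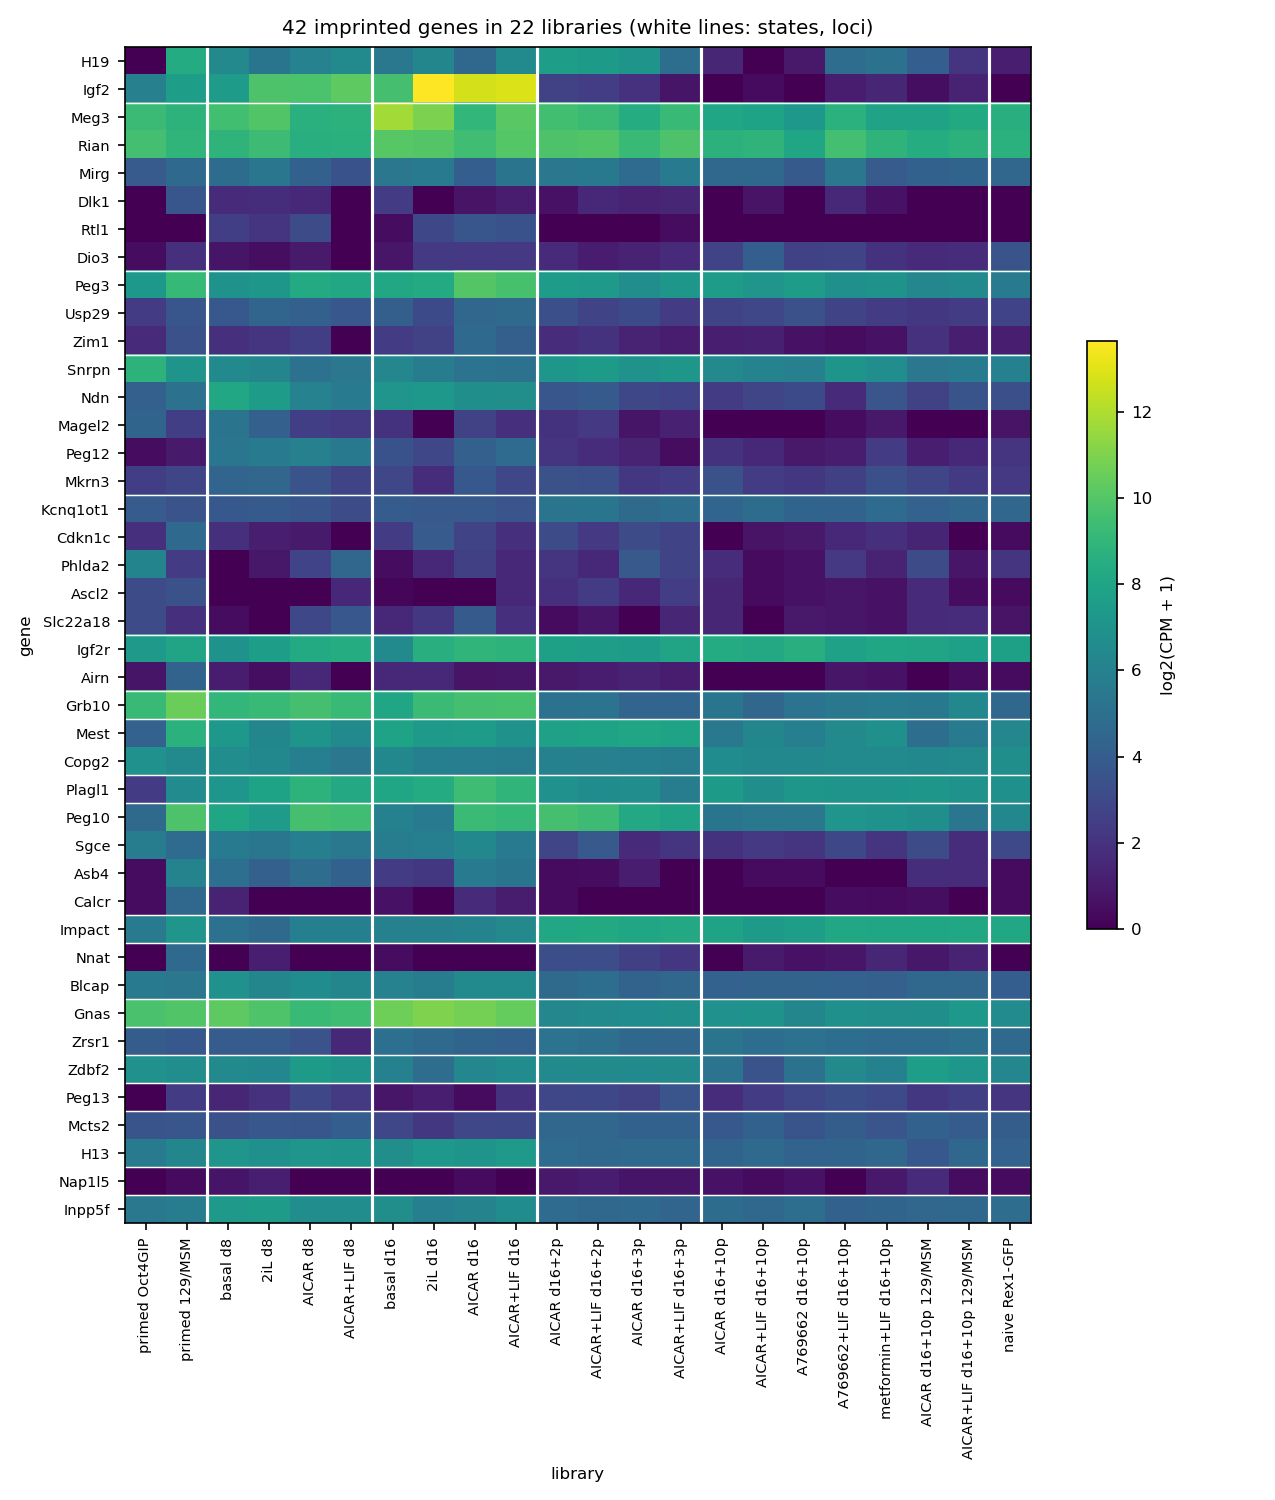
Level of each of the 42 members in each of the 22 libraries, as log2 of CPM plus 1, members grouped by locus and libraries by state. Igf2, Gnas and Grb10 are high up to d16 and low in every expanded library, and Impact is highest after passaging.

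Igf2 encodes the main fetal growth factor. Its level was 61.0 CPM in primed Oct4GIP and 195 CPM in primed 129/MSM. It was 179, 897, 886 and 1210 CPM at d8 in basal, 2iL, AICAR and AICAR+LIF, with basal d8 between the primed libraries. At d16 it was 798, 12800, 6930 and 7720 CPM in the same order. It was then 5.33 and 4.56 CPM after 2 passages and 2.9 and 0.703 CPM after 3, and from 0.0 to 1.79 CPM with a median of 0.408 CPM after 10. The 2iL d16 library was highest, as it was for the fibroblast markers, and every expanded library lay below every library before expansion. Igf2 rose by a log2 fold change of 3.16 ± 0.63 (SE) from d8 to d16 (adjusted p = 0.00125), fell by 11 ± 0.93 from d16 to d16+2-3p (adjusted p = 3.14e-09), and fell by 7.27 ± 0.81 between primed and d16+10p (adjusted p = 7.88e-07). Per kilobase of exon its mean at d16 was 1240 CPM, above the 98.1 CPM of Meg3 in the same group. In 2iL d16 the reads of Igf2 were 1.1286% of the library, and all members together 1.8147%.

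H19, the non-coding RNA next to Igf2 that is transcribed from the maternal copy, had 0 counts in primed Oct4GIP and 333 CPM in primed 129/MSM. It was 83.6, 38.6, 65.3 and 91.0 CPM at d8, 43.7, 74.6, 23.1 and 87.3 CPM at d16, and 199, 173, 134 and 29.2 CPM at d16+2-3p. After 10 passages it ran from 0.0 to 32.8 CPM with a median of 3.14 CPM. Libraries of A769662+LIF with 28.7 CPM, metformin+LIF with 32.8 CPM and 129/MSM AICAR with 15.9 CPM were the high ones, and the d16+10p range overlapped that of d16+2-3p only at its top. H19 fell by 3.46 ± 0.9 from d16+2-3p to d16+10p (adjusted p = 0.0184), with values from -3.99 to -3.19 when each library was left out, and the call ended without AICAR d16+2p (-3.19) or AICAR+LIF d16+2p (-3.31). With only AICAR and AICAR+LIF libraries of Oct4GIP and the condition as a covariate the value was -7.53, which depends on the prior count because these libraries have 3 and 0 counts at d16+10p. Against primed the fall was 3.78 ± 1.01 (adjusted p = 0.00599), and it rests on primed 129/MSM: without that library the fitted value was 8.07, which depends on the prior count because the primed library that remains has 0 counts.

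Genes that act on the same growth pathway moved in different ways. Igf2r, the receptor that clears IGF2, was 157 and 253 CPM in the primed libraries and from 205 to 394 CPM with a median of 264 CPM after 10 passages, and it was called in none of the state comparisons (adjusted p = 0.442 between primed and d16+10p). Its overlapping antisense RNA Airn had 2 counts in primed Oct4GIP, 61 counts (19.3 CPM) in primed 129/MSM and 0, 0, 0, 2, 2, 0 and 1 counts at d16+10p. Airn was lower after 10 passages by a pooled ratio of 40.8 (95% counting interval 16.6 to 130), which rests on primed 129/MSM, without which it was too low to be tested. Strand use in counting is not stated, so reads where Igf2r and Airn overlap could count for either. Grb10 encodes an adaptor that dampens insulin and IGF receptor signals, and its promoter is the one of the 5 shown with the most CG dinucleotides. It was 585 and 1550 CPM in the primed libraries, 529, 609, 785 and 595 CPM at d8, 255, 640, 792 and 803 CPM at d16, 33.1, 35.3, 21.1 and 20.7 CPM at d16+2-3p, and from 21.7 to 81.5 CPM with a median of 42.6 CPM at d16+10p. No expanded library reached a library of an earlier state. Grb10 fell by 4.49 ± 0.42 from d16 to d16+2-3p (adjusted p = 1.05e-08) and by 4.58 ± 0.36 between primed and d16+10p (adjusted p = 8.07e-09).

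Plagl1, a zinc finger factor that regulates other imprinted genes, was 4.41 CPM in primed Oct4GIP and 93.8 CPM in primed 129/MSM, 143, 244, 448 and 299 CPM at d8, and 256, 341, 687 and 489 CPM at d16. After passaging it was 118, 99.6, 101 and 54.1 CPM at d16+2-3p and from 111 to 170 CPM with a median of 135 CPM at d16+10p. The d16 libraries were all above the expanded ones, and the d16+10p libraries were all above both primed ones. It fell by 2.25 ± 0.5 from d16 to d16+2-3p (adjusted p = 0.000482), and between primed and d16+10p the value of 1.49 ± 0.61 missed the threshold (adjusted p = 0.0607).

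**Figure D3:**
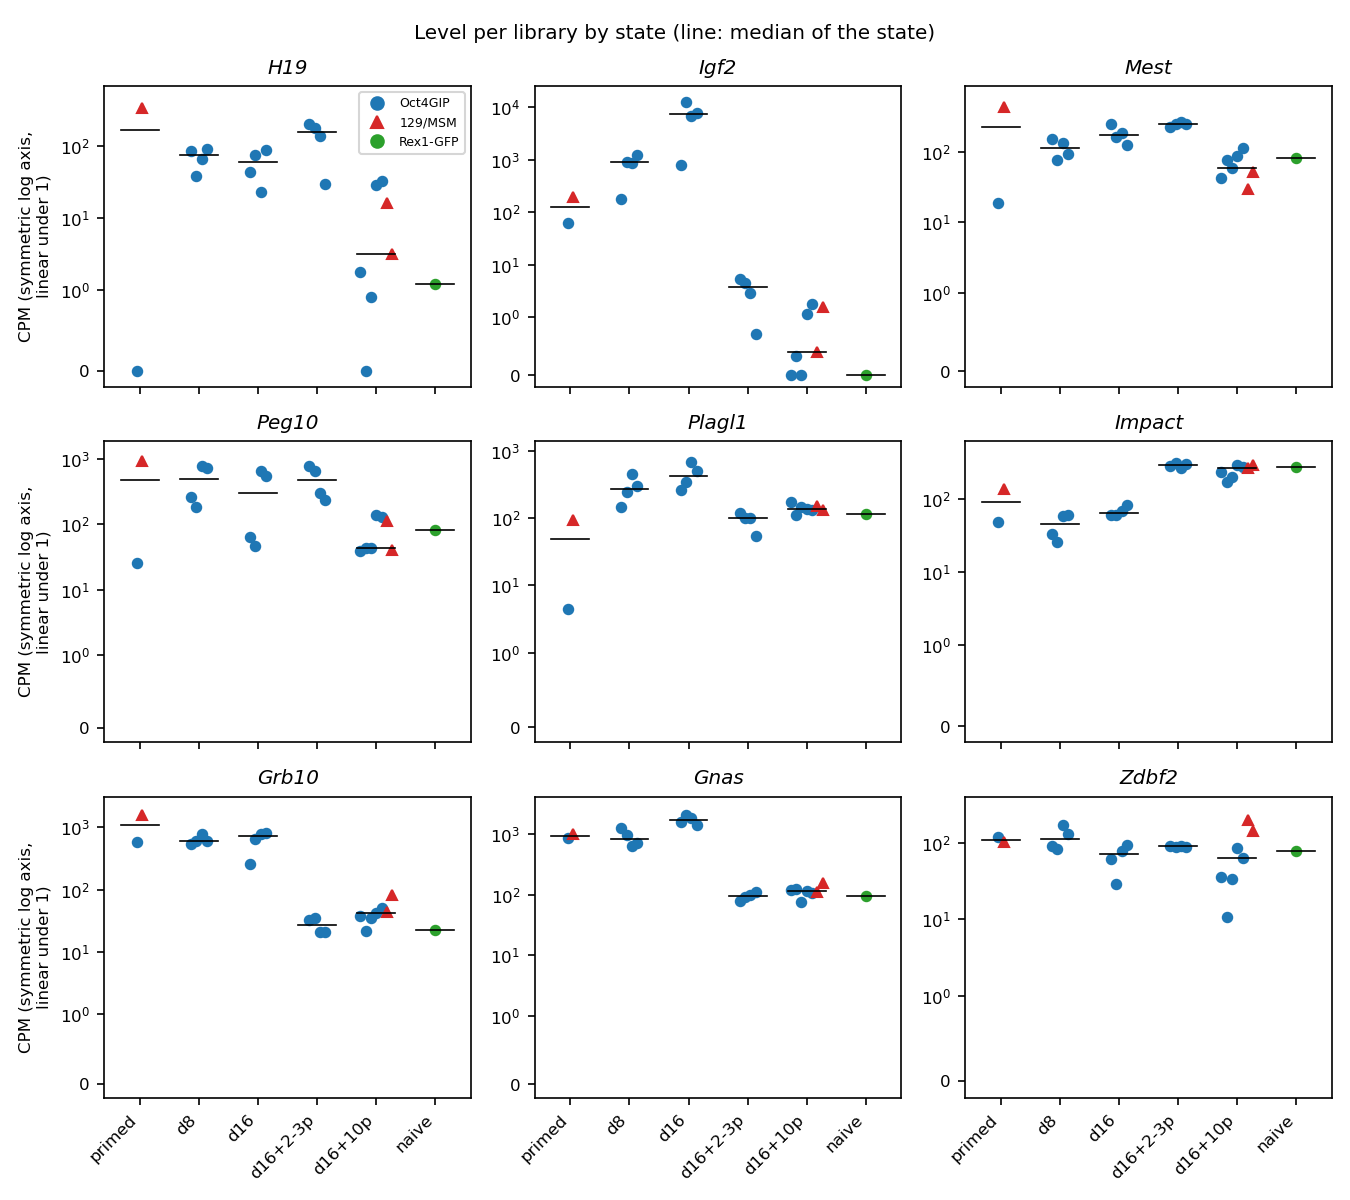
Levels of 9 members in CPM by state on a symmetric log axis that is linear under 1, with 1 point per library, cell lines told apart by marker and colour, and a bar at each state's median. H19, Mest, Peg10 and Plagl1 lie far apart in the 2 primed libraries, while Igf2, Grb10 and Gnas drop between d16 and d16+2-3p in every library.

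The Kcnq1ot1 domain on chromosome 7 holds a paternally expressed non-coding RNA and maternally expressed growth regulators. Kcnq1ot1 itself was 14.3 and 10.1 CPM in the primed libraries, from 7.91 to 14.9 CPM at d8 and d16, 36.7, 38.4, 25.1 and 29.2 CPM at d16+2-3p, and from 18.8 to 27.3 CPM with a median of 20.6 CPM at d16+10p. All expanded libraries were above all earlier ones. It rose by 1.3 ± 0.2 from d16 to d16+2-3p (adjusted p = 9.91e-06) and then fell by 0.55 ± 0.17 (adjusted p = 0.0478), with values from -0.66 to -0.46 when each library was left out. Of these fits, the call was kept only in those without AICAR d16+3p or, at d16+10p, without AICAR+LIF or metformin+LIF of Oct4GIP. It also ended with only AICAR and AICAR+LIF libraries and the condition as a covariate (-0.44). Its rise of 0.85 ± 0.24 between primed and d16+10p (adjusted p = 0.00899) became 0.61 and missed the threshold without primed 129/MSM. Cdkn1c encodes p57, an inhibitor of cyclin-dependent kinases. It was 2.57 and 24.3 CPM in the primed libraries, 7.69, 3.8, 7.99 and 5.97 CPM at d16+2-3p and from 0.0 to 2.68 CPM with a median of 0.924 CPM at d16+10p, so the expanded groups did not overlap. It fell by 2.4 ± 0.65 between them (adjusted p = 0.0224), with values from -2.79 to -2.2 when each library was left out, and the call ended without AICAR d16+2p (-2.29) or AICAR d16+3p (-2.28). Against primed it fell by 3.48 ± 0.72 (adjusted p = 0.000701), which became -1.11 and missed the threshold without primed 129/MSM.

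Phlda2, which restrains placental growth, was 70.2 CPM in primed Oct4GIP and 4.42 CPM in primed 129/MSM, and from 0.324 to 7.76 CPM with a median of 1.49 CPM at d16+10p. The highest library at d16+10p, 129/MSM AICAR, lay above primed 129/MSM. The fall of 3.95 ± 0.98 (adjusted p = 0.0033) became -0.89 and missed the threshold without primed Oct4GIP. Ascl2, a trophoblast transcription factor, was 7.72 and 9.47 CPM in the primed libraries, 0.188, 0.0, 0.0 and 1.88 CPM at d16, 2.66, 4.18, 1.82 and 4.57 CPM at d16+2-3p, and from 0.324 to 2.04 CPM with a median of 0.616 CPM at d16+10p. Both primed libraries were above all others. It fell by 3.24 ± 0.72 between primed and d16+10p (adjusted p = 0.00133). Slc22a18, a solute carrier, ranged from 0.0 to 13.7 CPM over all libraries and passed only from d16 to d16+2-3p.

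In the Peg10 locus on chromosome 6 the primed libraries were far apart. Peg10, a retrotransposon-derived gene needed in placenta, was 25.0 CPM in primed Oct4GIP and 919 CPM in primed 129/MSM, 263, 179, 776 and 706 CPM at d8, and 63.1, 46.1, 635 and 537 CPM at d16. At both days the cultures with AICAR were the high ones, and each had 1 library per condition. It was 776, 643, 303 and 231 CPM at d16+2-3p and from 38.3 to 136 CPM with a median of 43.5 CPM at d16+10p, with no overlap between these groups. Peg10 fell by 2.66 ± 0.73 between them (adjusted p = 0.0241), with values from -2.89 to -2.34 when each library was left out, and the call ended without AICAR d16+2p (-2.34), AICAR+LIF d16+2p (-2.5) or AICAR d16+10p of Oct4GIP (-2.55). Against primed it fell by 2.61 ± 0.84 (adjusted p = 0.0194), and the value turned to 1.63 without primed 129/MSM. Sgce, a sarcoglycan that shares its promoter region with Peg10, was 51.9 and 25.9 CPM in the primed libraries, from 39.4 to 80.5 CPM at d8 and d16, 6.21, 12.9, 2.18 and 3.16 CPM at d16+2-3p, and from 2.35 to 7.76 CPM with a median of 3.28 CPM at d16+10p. Every expanded library lay below every earlier one. Sgce fell by 3.29 ± 0.42 from d16 to d16+2-3p (adjusted p = 7.77e-07) and by 3.16 ± 0.41 between primed and d16+10p (adjusted p = 4.61e-06).

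Asb4, a subunit of ubiquitin ligases, had 1 count in primed Oct4GIP and 68.9 CPM in primed 129/MSM, 30.8, 17.4, 28.4 and 17.8 CPM at d8, 4.15, 3.61, 50.2 and 38.4 CPM at d16, at most 1.09 CPM at d16+2-3p and from 0.0 to 2.45 CPM with a median of 0.308 CPM at d16+10p. The 2 libraries of 129/MSM were the highest after 10 passages. From d16 to d16+2-3p it fell by a pooled ratio of 50 (95% counting interval 21.2 to 155, adjusted p = 0.000562). Its fall of 5.45 ± 1.05 against primed (adjusted p = 0.000371) became 0.94 without primed 129/MSM and -1.17 without all 129/MSM libraries, where it missed the threshold and where primed Oct4GIP with 1 count stands alone for the primed state. Calcr, the calcitonin receptor, had 1 count in primed Oct4GIP, 75 counts (23.7 CPM) in primed 129/MSM and 0, 0, 0, 1, 1, 1 and 0 counts at d16+10p. The pooled ratio was 81.9 (95% counting interval 27.0 to 406), which rests on primed 129/MSM, without which Calcr was too low to be tested.

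Mest, a hydrolase-fold protein of fetal mesoderm, was 18.4 CPM in primed Oct4GIP and 423 CPM in primed 129/MSM, 152, 75.5, 134 and 91.0 CPM at d8, 243, 158, 183 and 124 CPM at d16, and 225, 243, 260 and 242 CPM at d16+2-3p. At d16+10p it ran from 29.8 to 113 CPM with a median of 58.5 CPM. The 4 libraries after 2 to 3 passages were close together and all above the 7 after 10. Mest fell by 1.89 ± 0.45 between these groups (adjusted p = 0.0111), and the call was kept with each library left out, with values from -2.08 to -1.76. Against primed it fell by 1.75 ± 0.54 (adjusted p = 0.0147), and the value turned to 1.83 without primed 129/MSM. Copg2, a coatomer subunit whose 3' end overlaps Mest, was 62.7, 59.7, 58.1 and 52.4 CPM at d16+2-3p and from 80.4 to 97.7 CPM with a median of 87.0 CPM at d16+10p, again with no overlap. It rose by 0.58 ± 0.17 (adjusted p = 0.0384), with values from 0.53 to 0.62 when each library was left out. The call ended in 9 of these 11 fits, all but those without A769662 or 129/MSM AICAR at d16+10p. Because Mest and Copg2 overlap on opposite strands and strand use in counting is not stated, reads of the overlap could count for either.

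In the Dlk1 to Dio3 region of chromosome 12 the maternally expressed non-coding RNAs Rian and Meg3 were above 100 CPM in all libraries. Rian, a host of small nucleolar RNAs, was 749 and 494 CPM in the primed libraries, 920, 990, 584 and 921 CPM at d16+2-3p and from 267 to 768 CPM with a median of 436 CPM at d16+10p. A769662+LIF with 768 CPM was apart from the next library at 461 CPM and overlapped the earlier group. Rian fell by 0.92 ± 0.22 (adjusted p = 0.0121), with values from -1.09 to -0.82 when each library was left out, and the call ended without AICAR d16+2p (-0.87) or AICAR+LIF d16+2p (-0.84). Meg3, a non-coding RNA of the same transcription unit, was 3500, 1950, 517 and 1140 CPM at d16 and from 156 to 422 CPM at d16+10p, where the value of -1.13 ± 0.36 against d16+2-3p missed the threshold (adjusted p = 0.0517). Mirg, a microRNA host, ranged from 9.89 to 49.5 CPM over all libraries and was called in none of the state comparisons. The protein-coding genes of the region were low. Dlk1, a Notch-like membrane protein, had 36 counts (11.4 CPM) in primed 129/MSM and at most 4.33 CPM elsewhere, and between primed and d16+10p only 1 of its 2 entries was called, so it is not counted. Rtl1, a retrotransposon-derived gene of placenta, had 0 counts in both primed libraries and in all libraries at d16+10p, and from 0.377 to 11.5 CPM at d16. Dio3, which inactivates thyroid hormone, was 0.368 and 2.53 CPM in the primed libraries and from 2.04 to 15.9 CPM with a median of 5.24 CPM at d16+10p, and was called in none of the state comparisons.

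In the Peg3 domain, Peg3, a zinc finger protein, was 153 and 572 CPM in the primed libraries, 291, 323, 1020 and 820 CPM at d16, 177, 163, 103 and 148 CPM at d16+2-3p and from 78.0 to 187 CPM with a median of 127 CPM at d16+10p. The d16 cultures with AICAR were the highest libraries. It fell by 2.05 ± 0.44 from d16 to d16+2-3p (adjusted p = 0.00032), and its fall of 1.48 ± 0.44 between primed and d16+10p (adjusted p = 0.0121) became -0.24 and missed the threshold without primed 129/MSM. Zim1, a maternally expressed zinc finger gene beside Peg3, was 2.21 and 9.47 CPM in the primed libraries, 24.3 CPM in AICAR d16, its highest library, and from 0.377 to 2.86 CPM with a median of 1.18 CPM at d16+10p. The fall of 2.34 ± 0.68 between primed and d16+10p (adjusted p = 0.0103) became -0.95 and missed the threshold without primed 129/MSM. Usp29, of the ubiquitin-specific protease family, ranged from 3.68 to 25.6 CPM over all libraries and passed only from d16 to d16+2-3p (-1.4 ± 0.39).

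The Snrpn to Ndn domain corresponds to the region deleted in Prader-Willi syndrome. Snrpn, a splicing protein, was 449 and 134 CPM in the primed libraries, from 33.1 to 88.0 CPM at d8 and from 34.2 to 78.6 CPM at d16, 150, 170, 126 and 150 CPM at d16+2-3p and from 41.3 to 134 CPM with a median of 67.5 CPM at d16+10p. It rose by 1.57 ± 0.39 at the first passages (adjusted p = 0.0013), and its fall of 1.91 ± 0.39 between primed and d16+10p (adjusted p = 0.000613) became -0.79 and missed the threshold without primed Oct4GIP. Magel2, a MAGE family protein, had 54 and 15 counts in the primed libraries, 10, 10, 2 and 4 counts at d16+2-3p and 0, 0, 0, 1, 3, 0 and 0 counts at d16+10p. The pooled ratio of d16+2-3p to d16+10p was 10.7 (95% counting interval 3.7 to 42, adjusted p = 0.0472), and the call ended in 10 of 11 fits with 1 library left out, all but that without metformin+LIF. The pooled ratio of primed to d16+10p was 55.8 (95% counting interval 20.8 to 211, adjusted p = 0.000106). Ndn, which encodes necdin, was 274 CPM in basal d8, its highest library, and from 2.26 to 11 CPM at d16+10p, and its fall of 1.87 ± 0.5 against primed became -1.31 and missed the threshold without primed 129/MSM. Peg12, of the Frat family, had 1 and 3 counts in the primed libraries and 39.8, 49.8, 60.6 and 45.5 CPM at d8, a pooled ratio of 69.2 (95% counting interval 26.8 to 256). Mkrn3, a makorin RING finger protein, ranged from 2.41 to 22 CPM over all libraries and was called in none of the state comparisons.

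Gnas encodes the alpha subunit of the stimulatory G protein. It was 857 and 979 CPM in the primed libraries, 1240, 961, 617 and 690 CPM at d8, 1570, 2030, 1780 and 1380 CPM at d16, 77.8, 91.2, 98.8 and 109 CPM at d16+2-3p and from 76.7 to 156 CPM with a median of 113 CPM at d16+10p. No expanded library came near an earlier one. Gnas fell by 4.17 ± 0.23 from d16 to d16+2-3p (adjusted p = 1.22e-11) and by 3.0 ± 0.21 between primed and d16+10p (adjusted p = 1.39e-09). Nnat, which encodes neuronatin, a membrane protein of neurons, had 0 counts in primed Oct4GIP and 24.0 CPM in primed 129/MSM, at most 3 counts in any d8 or d16 library, 8.58, 8.36, 5.08 and 3.51 CPM at d16+2-3p and from 0.0 to 1.79 CPM with a median of 0.817 CPM at d16+10p. The libraries after 2 to 3 passages were above all after 10. Nnat fell by 2.66 ± 0.75 between them (adjusted p = 0.0293), with values from -2.9 to -2.48 when each library was left out. The call ended without AICAR d16+2p, AICAR+LIF d16+2p or AICAR d16+3p, and without AICAR, AICAR+LIF, A769662 or A769662+LIF of Oct4GIP at d16+10p. Its fall of 3.57 ± 0.84 against primed (adjusted p = 0.00215) turned to 4.48 without primed 129/MSM, a fitted value that depends on the prior count. Blcap, the gene that surrounds Nnat on the other strand, so that reads of shared sequence could count for either if strand was not used, fell by 1.62 ± 0.19 from d16 to d16+2-3p and by 1.17 ± 0.21 between primed and d16+10p, from 46.0 and 42 CPM to between 17.0 and 22.9 CPM.

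**Figure D4:**
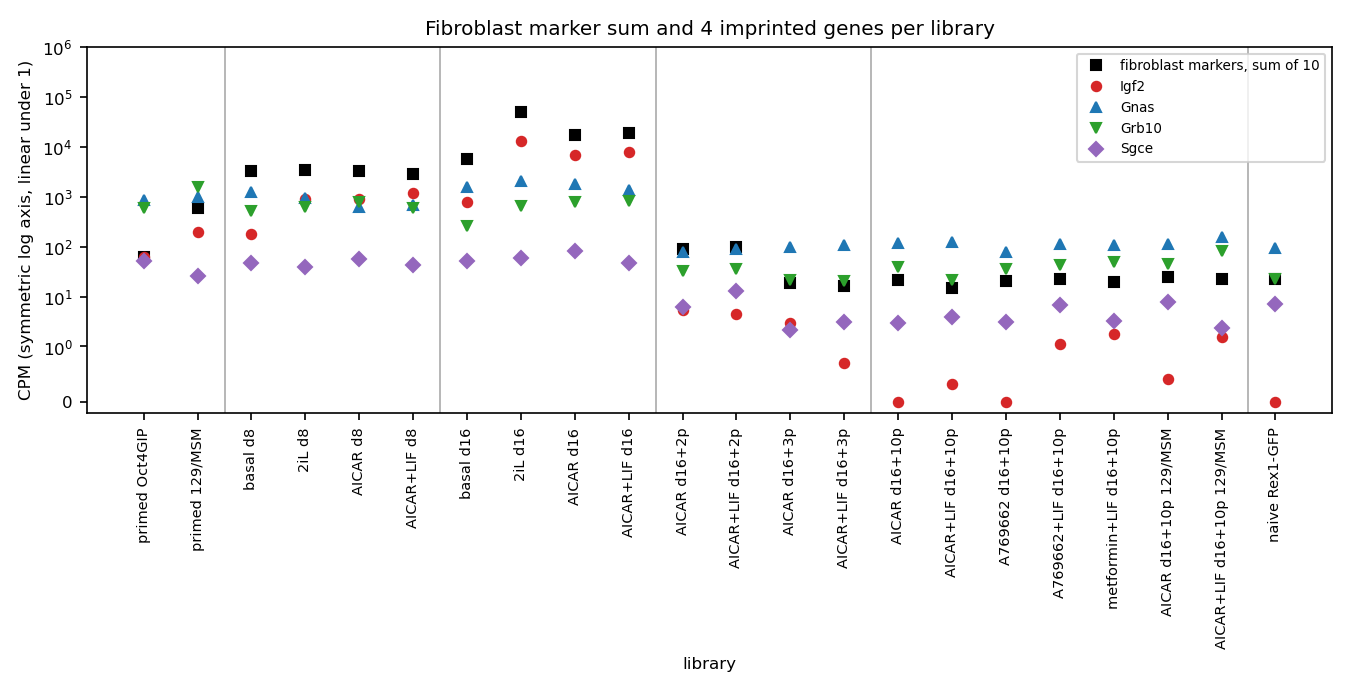
Summed CPM of the 10 fibroblast markers and CPM of Igf2, Gnas, Grb10 and Sgce in each library, on a symmetric log axis that is linear under 1, with libraries in protocol order. The marker sum and Igf2 are both highest in 2iL d16, with 49800 and 12800 CPM, and Gnas and Grb10 are high in primed Oct4GIP, where the marker sum is 63.3 CPM.

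Gnas, Grb10 and Sgce were 857, 585 and 51.9 CPM in primed Oct4GIP, where the fibroblast sum was 63.3 CPM, and without primed 129/MSM their log2 fold changes between primed and d16+10p were -2.91, -3.71 and -3.59 and that of Igf2 -6.21. In that fit 1 library stands for the primed state, and its spread is taken from the other groups. How much of the d8 and d16 levels came from feeder cells was not tested.

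The remaining loci hold single genes or pairs. Impact, a regulator of translation and 1 of 3 members that rose between primed and d16+10p, was 47.8 and 136 CPM in the primed libraries, from 25.3 to 59.3 CPM at d8, 60.9, 60.9, 68.3 and 83.6 CPM at d16, 281, 307, 268 and 304 CPM at d16+2-3p and from 171 to 294 CPM with a median of 265 CPM at d16+10p. Every expanded library was above every earlier one. It rose by 2.09 ± 0.28 from d16 to d16+2-3p (adjusted p = 1.34e-06) and by 1.42 ± 0.33 between primed and d16+10p (adjusted p = 0.00208), which became 0.85 and missed the threshold without primed Oct4GIP. Zrsr1, a splicing factor retrogene with a near-identical relative on the X chromosome, rose by 1.16 ± 0.33 between primed and d16+10p, from 15.1 and 12.3 CPM to between 26.5 and 37.1 CPM, and the value of 1.01 missed the threshold without primed 129/MSM. H13, a signal peptide peptidase, was from 107 to 166 CPM at d8 and d16 and fell by 2.52 ± 0.19 from d16 to d16+2-3p. The retrogene Mcts2, which lies within H13 and closely resembles Mcts1, rose by 1.73 ± 0.24 in the same step, and its reads could belong to either relative. Inpp5f, a phosphoinositide phosphatase, fell by 1.06 ± 0.23 between primed and d16+10p, from 42.3 and 54.6 CPM to between 18.1 and 29.9 CPM, and the value of -0.87 missed the threshold without all 129/MSM libraries. Peg13, a non-coding RNA, was at most 11.2 CPM in any library and rose only from d16 to d16+2-3p (2.55 ± 0.66), and Nap1l5, a retrogene, was at most 2.04 CPM.

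The untreated lines differed at many members, with 1 library each and so no test. Counts under the floor were raised to it for this count. Of 39 members above the floor in a primed library, 13 differed by more than 4-fold (33.3%), beside 8.07% of the 17406 genes above the floor. Dio3, with 1 count in primed Oct4GIP and 8 in primed 129/MSM, was 2.29-fold apart by this rule and 6.87-fold without it. Higher in primed 129/MSM were H19 (at least 302-fold), Nnat (at least 21.8-fold), Dlk1 (at least 10.3-fold), Asb4, Calcr, Peg10, Airn, Mest, Plagl1, Cdkn1c and Zim1. Peg10 was 36.7-fold higher (95% counting interval 28.9 to 47.4), Mest 23.0-fold (17.3 to 31.1) and Plagl1 21.3-fold (12.0 to 41.6). Higher in primed Oct4GIP were Phlda2, 15.9-fold, and Magel2, 4.19-fold. At least 302-fold for H19 is measured against the floor of 3 counts in primed Oct4GIP. The primed 129/MSM library held 590 CPM of fibroblast markers, all 10 above 0 counts, against 63.3 CPM with Lum and Twist2 at 0 in primed Oct4GIP. In the same order the yolk sac list was 142 and 0.736 CPM, with Sox17 at 140 and 0 CPM. The primed list was 1810 and 384 CPM, and Nanog was 60.3 and 243 CPM. Which layer the primed Oct4GIP cells grew on is not known. The part of the layer and of these markers' cells in the members' differences was not tested.

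After 10 passages the lines could be tested. A fit of the 7 libraries tested 13585 genes and 28 members, and 2 of 28 members differed between the lines, beside 9.03% of all genes, with a median log2 fold change of -0.04 (-0.06 at the floor) against -0.01 over all genes. Zdbf2, a zinc finger gene whose imprint controls postnatal growth, was 35.3, 10.7, 33.6, 84.1 and 62.8 CPM in Oct4GIP and 200 and 143 CPM in 129/MSM. Both 129/MSM libraries were above all 5 of Oct4GIP, and the level was 117 and 101 CPM in the respective primed libraries. Zdbf2 was higher in 129/MSM by 1.93 ± 0.49 (adjusted p = 0.0361, 1 member, 5.18% of all genes). Peg3 was 187, 137, 176, 114 and 127 CPM in Oct4GIP and 78.0 and 90.1 CPM in 129/MSM, again without overlap. It was lower in 129/MSM by -0.8 ± 0.2 (adjusted p = 0.0346, 1 member, 3.85% of all genes). Neither call held in every fit with 1 library left out: no member was called without either 129/MSM library, Zdbf2 ranged from 1.66 to 2.27 and Peg3 from -0.91 to -0.71. Oct4GIP libraries of A769662 and metformin have no counterpart in 129/MSM. With only AICAR and AICAR+LIF libraries and the condition as a covariate, 3 of 25 members were called (8.11% of all genes), Zdbf2 with 3.07 and Peg3 with -0.92 among them. Asb4 was too low for the test, with 12 counts in 129/MSM and 2 in Oct4GIP, a pooled ratio of 16.8 (95% counting interval 3.75 to 155). In the same comparison the markers T (3.2) and Klf4 (0.93) were higher in 129/MSM and Dnmt3b (-1.71), Dppa3 (-1.97) and Mylpf (-1.19) lower, with T at 33.5 and 18 CPM in 129/MSM and from 1.49 to 4.31 CPM in Oct4GIP, and their part in the members' differences was not tested. DESeq2 did not call Zdbf2 (1.93), and Peg3 was not called with all 22 libraries in 8 groups (-0.81). The call of Zdbf2 ended without AICAR (1.86) or A769662 (1.82) of Oct4GIP, or without AICAR (1.66) or AICAR+LIF (2.15) of 129/MSM. That of Peg3 ended without AICAR+LIF (-0.83) or A769662 (-0.74) of Oct4GIP, or without AICAR (-0.71) or AICAR+LIF (-0.91) of 129/MSM.

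**Figure D5:**
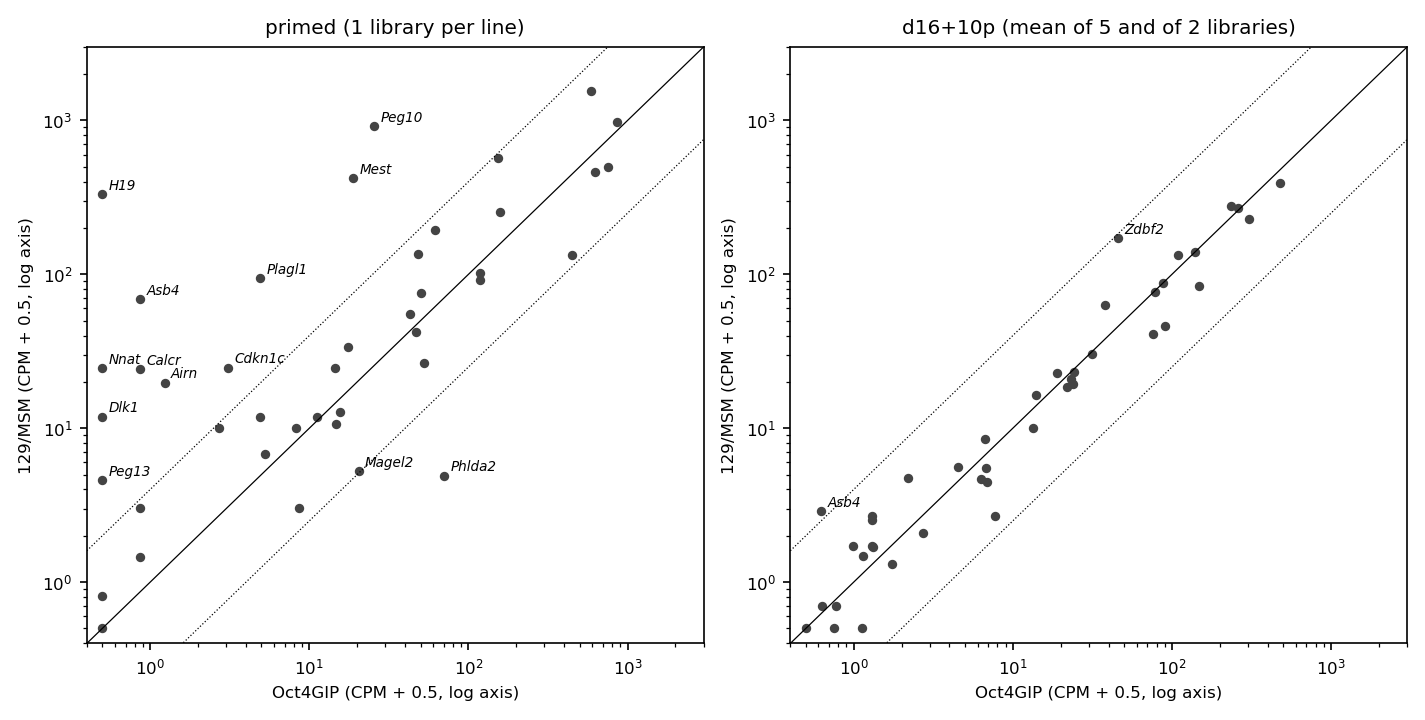
Level of each member in 129/MSM against Oct4GIP on log axes, in CPM plus 0.5, for the primed libraries and for the means of the d16+10p libraries, with a solid line at equal levels and dotted lines at 4-fold differences. H19, Peg10, Asb4, Mest and Plagl1 lie far from the diagonal among the primed libraries, and after 10 passages Asb4 lies past the upper dotted line and Zdbf2 near it.

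The change from primed to d16+10p was set side by side in the lines with an interaction term. Each line has 1 primed library, whose spread the fit takes from the other groups, so the term cannot tell a difference between lines from one between 2 single libraries, and its values are given without p. It passed the threshold for 2 of 41 members, beside 1.38% of all genes, and both differences were negative (2 members, 1.05% of all genes) and 0 positive (0.326% of all genes). The members' median was -0.78, against -0.09 over all genes. Mest went from 18.4 CPM to a mean of 75.3 CPM in Oct4GIP and from 423 CPM to 40.2 CPM in 129/MSM, a fitted difference of -5.43. Plagl1 went from 4.41 CPM to 139 CPM in Oct4GIP and from 93.8 CPM to 139 CPM in 129/MSM, a fitted difference of -4.39, which missed the threshold without 129/MSM AICAR+LIF at d16+10p (-4.29) and in limma voom (-4.33). Among the marker lists, the median was -5.79 for the fibroblast markers, -2.84 for the primed ones, -1.68 for the naive ones and -2.58 for 3 of the yolk sac, with Dnmt3b of the primed and Tbx3 of the naive markers past the threshold, and their part in the members' values was not tested. H19 moved from 0 counts to a mean of 12.8 CPM in Oct4GIP and from 333 to 9.53 CPM in 129/MSM, and Peg10 from 25.0 to 77.6 CPM and from 919 to 76.1 CPM, but neither passed.

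The naive library, which entered no test, lay inside the d16+10p range for 26 of the 42 members. It was above the range for Copg2, with 111 CPM against at most 97.7 CPM. It was below for Peg3 (50.9 against at least 78.0 CPM), Blcap (16.1 against 17.0 CPM) and Zrsr1 (23.9 against 26.5 CPM). Igf2, Dlk1, Cdkn1c, Ascl2, Slc22a18, Asb4, Nnat and Nap1l5 had at most 2 counts there and at most 1 in the lowest library of d16+10p, so these 8 could not be placed. Rtl1, Magel2, Airn and Calcr were at or under the floor on both sides. Igf2 had 0 counts and Gnas was 94.6 CPM in the naive library, Grb10 22.3 CPM, Impact 276 CPM and Mest 80.1 CPM.

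Other imprinted genes were followed with a list of 34, of which 33 were found and 27 tested between states. Called were 9 from primed to d8 (5 higher, 4 lower, 33.3% of those tested beside 27.7% of all genes), 7 from d8 to d16 (4 and 3, 25.9% beside 26.3%), 17 from d16 to d16+2-3p (6 and 11, 63.0% beside 71.1%), 2 from there to d16+10p (2 and 0, 7.41% beside 9.35%) and 16 between primed and d16+10p (8 and 8, 59.3% beside 36.6%). The first count was 4 without primed Oct4GIP (15.5% of all genes) and the second 4 without 2iL d16 (19.3%). The median of the last comparison was -0.07 (-0.14 at the floor), and without primed 129/MSM it was 0.16 (0.28 at the floor). The difference between this list and the members was not tested. Between the lines 3 of 18 tested were called (16.7% beside 9.03% of all genes), Ddc (0.78 ± 0.2) and Ppp1r9a (1.32 ± 0.35) higher in 129/MSM and Sfmbt2 (-1.81 ± 0.43) lower. All 3 calls between the lines ended without AICAR or AICAR+LIF of 129/MSM (0.89 and 0.66, 1.26 and 1.36, -1.79 and -1.84). That of Ppp1r9a also ended without A769662 (1.26) or metformin+LIF (1.32), and that of Ddc was kept only without AICAR+LIF of Oct4GIP. From d16+2-3p to d16+10p, Ago2, an Argonaute protein, rose by 0.78 ± 0.2 and Dhcr7, an enzyme of cholesterol synthesis, by 1.34 ± 0.25. The call of Ago2 ended without AICAR d16+2p (0.79), AICAR+LIF d16+2p (0.73) or AICAR d16+3p (0.66). Slc38a4, an amino acid transporter, was 0.368 and 41.1 CPM in the primed libraries and from 138 to 352 CPM at d16+10p.

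Genes of imprint maintenance and of DNA methylation were followed with a list of 14. It includes Tet1, Tet2 and Tet3, which oxidize methylated cytosine, so its counts mix genes of unlike action. Between primed and d16+10p, 12 changed (85.7%, beside 36.6% of all genes), 9 higher and 3 lower. Ctcf, Dnmt1, Dnmt3l, Dppa3, Tet1, Tet2, Trim28, Uhrf1 and Zfp57 were higher, and Dnmt3a, Dnmt3b and Tet3 lower. From d16 to d16+2-3p, 12 changed (10 higher, 2 lower, beside 71.1%), from primed to d8 4 (2 and 2, 28.6% beside 27.7%) and from d8 to d16 5 (all lower, 35.7% beside 26.3%). From d16+2-3p to d16+10p 4 changed (28.6% beside 9.35%) and all fell: Dnmt3l by 4.71 ± 0.54, Dnmt3b by 2.05 ± 0.41, Dnmt3a by 0.86 ± 0.18 and Trim28 by 0.45 ± 0.12. Dnmt3l, the cofactor of new methylation, had 0 counts in both primed libraries, 330, 317, 366 and 353 CPM at d16+2-3p and from 1.77 to 38.1 CPM at d16+10p. The libraries after 2 to 3 passages were far above all others. Dnmt3b, which writes new methylation, was 238 and 865 CPM in the primed libraries, 531, 568, 419 and 510 CPM at d16+2-3p and from 41.9 to 224 CPM at d16+10p. Zfp57, which binds methylated imprinting control regions, was 96.4 and 84.6 CPM in the primed libraries and from 226 to 463 CPM at d16+10p, a rise of 1.89 ± 0.57. Dppa3, which protects maternal methylation in the zygote, had 0 counts in the primed libraries and from 23.3 to 131 CPM at d16+10p. Between the lines after 10 passages 3 of 14 were called (21.4% beside 9.03% of all genes). Tet2 was higher in 129/MSM (0.9 ± 0.13), and Dnmt3b (-1.71 ± 0.4) and Dppa3 (-1.97 ± 0.36) were lower. The 129/MSM side has 2 libraries, and these calls are given for the main fit only. DNA methylation was not measured, and the members' part in these changes was not tested.

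Rtl1 and Calcr had at most 3 counts in every library of d16+2-3p and d16+10p, so differences of these genes among those libraries were not detectable at this depth.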

How the data were processed

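Stranded polyA RNA libraries (TruSeq Stranded mRNA) were mapped by the authors with Bowtie2 2.2.5 to Ensembl release 100 cDNA and ncRNA sequences of GRCm38, and the deposited values are raw read counts per Ensembl gene. Whether strand was used in counting is not stated. All 22 libraries were used, with 1 library per condition, and libraries of a state were treated as replicates. Counts were scaled with TMM factors and compared in edgeR 4.0.16 (quasi-likelihood F tests, R 4.3.3), after its filter on low counts, and p-values were adjusted over all genes tested by Benjamini-Hochberg. The state fit had 6 groups and 16 residual degrees of freedom, the fit of the lines 5 and the interaction fit 14.

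The members, the fibroblast, naive pluripotency, primed epiblast, pluripotency, yolk sac, skeletal muscle, trophoblast and neural marker lists, the other imprinted genes and the imprint maintenance genes were chosen with earlier results of these data known. Members called between primed and d16+10p, between d16+2-3p and d16+10p or between the lines at d16+10p, up to 15 per comparison by size of change, were to be described with their values, the others by locus. The 4-fold threshold between the primed libraries and the alternative that sums entries sharing a symbol were chosen after seeing the data.

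Alternatives were DESeq2 1.42.0, limma 3.58.1 with voom, RLE factors, no factors, no filter, fewer libraries in the fit, the culture condition as a covariate, and each library left out in turn. Counting intervals are exact at 95%. Tables and figures were made with Python 3.11.15, pandas 2.3.3, numpy 2.4.6, scipy 1.17.1 and matplotlib 3.10.9.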

Additional observations from a re-analysis of the deposited data

Results flagged for a closer look

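In 12 of 153 sets of libraries of a member within a state, the highest or lowest library lay far from the others by Dixon's gap ratio. These sets cover 10 members, and chance gives about 1 in 20. At d16, Rian was 693 CPM in AICAR (others 1030 to 1090 CPM), Dio3 0.754 CPM in basal (others 3.75 to 4.01 CPM) and Mcts2 3.61 CPM in 2iL (others 6.55 to 6.77 CPM), each the lowest. Ascl2 with 1.88 CPM in AICAR+LIF d16, Slc22a18 with 13.7 CPM in AICAR d16 and Calcr with 1.45 CPM in basal d8 were the highest of their states, and Ascl2 and Calcr there rest on 5 and 4 counts.

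At d16+10p, A769662+LIF lay far above the others for 3 genes of the Dlk1 to Dio3 region: Rian with 768 CPM, Mirg with 41.5 CPM and Dlk1 with 1.88 CPM, the last from 5 counts. It was also the highest for Meg3, with 422 CPM (others 156 to 310 CPM), a gap that did not pass. Dio3 of the same region was highest in AICAR+LIF of Oct4GIP, with 15.9 CPM (others 2.04 to 6.03 CPM). In AICAR of 129/MSM, Zim1 was highest with 2.86 CPM and H13 lowest with 12.7 CPM (others 19.4 to 24.3 CPM).

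In the interaction term of edgeR for the change from primed to d16+10p (129/MSM minus Oct4GIP), the fitted log2 values were -5.43 for Mest and -4.39 for Plagl1. Each line has 1 primed library, with 18.4 and 423 CPM of Mest and 4.41 and 93.8 CPM of Plagl1, so a difference between lines cannot be told from one between these libraries. The causes were not tested.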

How the results depend on the processing

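Of the log2 fold changes of called members under the alternatives, 1355 kept direction and call, 144 kept direction only and 11 reversed. Calls kept under every alternative in which the gene was fitted numbered 3 of 14 from primed to d8, 3 of 11 from d8 to d16, 22 of 24 from d16 to d16+2-3p (4 of them too low to be fitted in 1 of the 18 alternatives), 1 of 9 from there to d16+10p (Mest), 10 of 25 between primed and d16+10p (8 fitted in all 18 alternatives, Airn and Calcr in 15, and neither without primed 129/MSM), 0 of 2 between the lines and 1 of 2 in the interaction (Mest).

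With only the 2 groups compared in the fit, 5 members were called from primed to d8 (10.6% of all genes) and 4 from d8 to d16 (18.5%), but 12 from d16+2-3p to d16+10p (22.3%). Without the 129/MSM libraries 15 were called between primed and d16+10p (29.2%). Between the lines, 4 were called with no filter on low counts (5.33%), 1 with all 22 libraries in 8 groups (3.07%) and 1 without the 3 shallowest libraries (8.13%). In the interaction DESeq2 called 4 (3.85%). With entries sharing a symbol summed, 26 members were called between primed and d16+10p, 23 of them lower (36.6%), and 15 from primed to d8 (27.9%). The number called in each other comparison was as in the main fit. Past a 2-fold difference in place of 4-fold, 23 members differed between the primed libraries, beside 27.5% of the 17406 genes above the floor. With each library left out, the counts ran from 10 to 16 (primed to d8, 15.5% to 28.9% of all genes), 8 to 13 (d8 to d16, 18.3% to 26.1%), 23 to 25 (d16 to d16+2-3p, 67.6% to 69.5%), 1 to 8 (d16+2-3p to d16+10p, 5.03% to 9.88%), 16 to 27 (primed to d16+10p, 23.9% to 36.2%), 0 to 2 (lines, 1.86% to 10.0%) and 1 to 3 (interaction, 0.674% to 1.38%).

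Other tools and sets also ended calls. From primed to d8, limma voom ended those of Airn (-2.01), Calcr (-2.66), Cdkn1c (-2.42), Igf2 (2.43) and Nnat (-2.01). It ended those of Zim1 from d8 to d16 (1.67) and Magel2 from d16+2-3p to d16+10p (-2.83). Between primed and d16+10p it ended those of Asb4 (-3.74), H19 (-1.28), Mest (-0.58), Nnat (-1.2), Peg10 (-1.22) and Peg3 (-1.27). DESeq2 ended those of Calcr from primed to d8 (-4.5) and Nnat from d16+2-3p to d16+10p (-2.78). In the latter comparison Kcnq1ot1 was not called without factors (-0.52) or filter (-0.59), nor Copg2 without the filter (0.53). Without the 3 shallowest libraries, Kcnq1ot1 (-0.56), Magel2 (-3.09) and Nnat (-2.53) were not called there. With only the 2 groups compared, Mest was not called between primed and d16+10p (-1.78). Without the 129/MSM libraries, Copg2 (0.58), Kcnq1ot1 (-0.51) and Magel2 (-2.8) were not called from d16+2-3p to d16+10p. Between primed and d16+10p, Cdkn1c (-0.98), Inpp5f (-0.87), Kcnq1ot1 (0.63), Ndn (-1.42), Peg3 (-0.07), Zim1 (-1.46) and Zrsr1 (1.0) were not called in that fit.

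With each library left out, the lowest values of the members that reversed were -8.05 for Nnat from primed to d8, and between primed and d16+10p -6.44 for Asb4, -4.77 for H19, -2.69 for Mest, -4.56 for Nnat and -3.57 for Peg10. Reversals all came with the loss of primed 129/MSM. From primed to d8, Nnat was 3.34 without that library and 3.39 without all 129/MSM libraries. Between primed and d16+10p, the corresponding values were 8.07 and 8.16 for H19, 1.83 and 2.01 for Mest, 4.48 and 4.34 for Nnat and 1.63 and 1.61 for Peg10, and Asb4 was 0.94 without primed 129/MSM and -1.17 without all 129/MSM libraries. H19 and Nnat have 0 counts in primed Oct4GIP, so their values depend on the prior count. The cause was not tested.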
